A study of Mus musculus with 79 samples.

Results

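Quadriceps of the chow-fed BXD strains was compared between strains with high and with low levels of interferon-induced mRNAs. The BXD strains are recombinant inbred mice derived from a cross of C57BL/6J and DBA/2J, and each strain carries its own fixed mixture of both parental genomes. The strains were chosen by an interferon score, the mean of the deposited values of Irf7, Ifit1 and Usp18 on each chow array, with 1 probeset for each gene. Of 42 chow arrays, 1 per strain, the 14 with the highest score form the high set, the 14 with the lowest score form the low set, and the 14 between them form the middle set. Both sets together hold 28 of the 79 arrays in the series.

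The series holds 42 chow arrays and 37 high fat diet (HFD) arrays of male mice at 29 weeks of age, fasted overnight, with the HFD fed from 8 weeks of age. The labels name only the strain as genotype, with no engineered allele in any group. Each array was hybridised with RNA pooled evenly from about 5 animals of 1 strain on 1 diet, which makes arrays the replicates and their spread a spread between strains. Of the strains in the high set 13 also had an HFD array, and of those in the low set 12 had one, from other animals. The deposited values are on an arbitrary scale, called units here, with the mean set at 8.0 and the SD at 2.0 in each array. The log base behind the scale is not given in the sources used here, so differences are given in units and not as folds.

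Interferons are secreted antiviral cytokines. Type I interferons (the Ifna and Ifnb1 products) signal through IFNAR1 and IFNAR2 to a complex that contains IRF9 and binds interferon-stimulated response elements (ISRE), whereas interferon gamma acts at gamma-activated sites (GAS). Irf7 encodes a transcription factor that amplifies type I interferon production, Ifit1 encodes a protein that binds foreign RNA ends, and Usp18 encodes the protease that removes ISG15 from proteins and dampens IFNAR2 signalling. In mice, immunity-related GTPases and guanylate-binding proteins attack the vacuoles of intracellular microbes and are induced mainly by interferon gamma.

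The promoter regions of members of the main groups are shown first, because the letters of both motifs can be read in them. Each line gives the 200 bases just upstream of the annotated RefSeq start, 5′ to 3′, from the build GRCm38.p6, with capitals marking an ISRE-type match (GAAA, any 2 bases, GAAA, on either strand) or a GAS-type match (TTC, any 3 bases, GAA, which is its own reverse complement).
Ifit1, chr19:34640689-34640888, plus strand: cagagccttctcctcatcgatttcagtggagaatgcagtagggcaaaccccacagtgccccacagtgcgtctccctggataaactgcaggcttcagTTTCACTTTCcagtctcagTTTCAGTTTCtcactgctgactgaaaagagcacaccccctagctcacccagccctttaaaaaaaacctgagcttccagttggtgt
Ifit3, chr19:34583329-34583528, plus strand: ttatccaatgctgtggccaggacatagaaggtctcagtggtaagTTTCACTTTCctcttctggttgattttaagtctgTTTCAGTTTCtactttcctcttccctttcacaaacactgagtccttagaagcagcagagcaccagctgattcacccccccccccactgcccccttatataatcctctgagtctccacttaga
Rsad2, chr12:26456453-26456652, minus strand: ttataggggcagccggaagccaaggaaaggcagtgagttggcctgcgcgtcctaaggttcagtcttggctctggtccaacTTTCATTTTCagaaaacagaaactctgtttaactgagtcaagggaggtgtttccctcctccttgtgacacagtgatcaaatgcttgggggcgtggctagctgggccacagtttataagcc
Gbp7, chr3:142530136-142530335, plus strand: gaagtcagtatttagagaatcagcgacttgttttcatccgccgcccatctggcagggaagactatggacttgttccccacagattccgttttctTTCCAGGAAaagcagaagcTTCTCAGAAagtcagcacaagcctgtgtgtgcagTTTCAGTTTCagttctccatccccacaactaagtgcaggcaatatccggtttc
Irgm1, chr11:48871421-48871620, minus strand: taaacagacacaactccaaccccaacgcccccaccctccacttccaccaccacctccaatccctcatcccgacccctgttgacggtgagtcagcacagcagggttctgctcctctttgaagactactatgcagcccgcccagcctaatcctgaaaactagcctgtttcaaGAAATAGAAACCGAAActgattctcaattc

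Ifit1, a score gene, has ISRE-type matches that begin at -104 and -85, counted from -1 at the base before the start. In Ifit3 they begin at -156 and -122, and the Rsad2 match begins at -120. Gbp7 has an ISRE-type match at -53 and GAS-type matches at -106 and -87. The Irgm1 matches at -30 and -24 overlap, so they share a GAAA. Over the windows of 300 bases from 250 before to 50 after the start, 3.99% of 27025 mouse genes held an ISRE-type match and 9.55% a GAS-type match. A match is a description of letters and not a shown binding site. Irf7 held no ISRE-type match in this window, and Usp18, Gbp4, Rtp4 and Oas2 were not in the promoter table.

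On chow the score ran from 8.16 through a median of 8.32 to 8.44 units in the high set and from 7.82 through 7.96 to 8.01 in the low set. The means were 8.31 ± 0.10 (SD, n = 14) and 7.94 ± 0.06 (SD, n = 14), with 8.09 ± 0.05 (SD, n = 14) in the middle set. These values made the sets, so their separation is a property of the choice and carries no test. At the upper limit C57BL/6J (8.164) was inside and BXD103 (8.163) outside, and at the lower limit BXD81 (8.013) was inside and BXD68 (8.019) outside. The limits therefore cut through a continuous range rather than a gap.

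**Figure D1:**
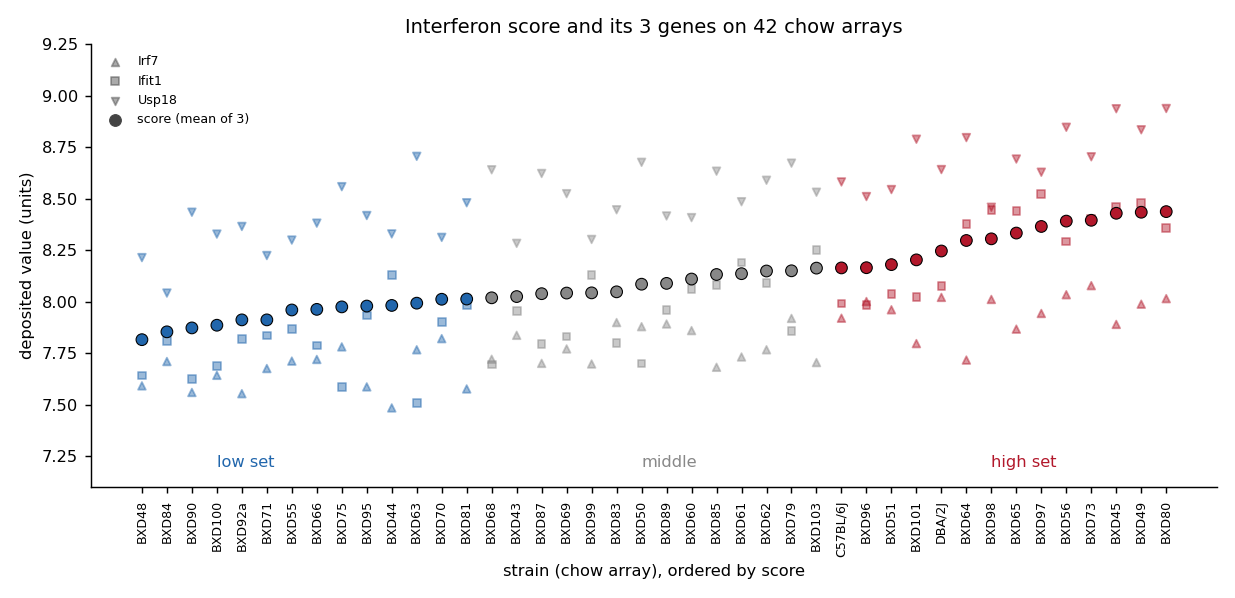
The score (circles) and its 3 genes (small symbols) are plotted in units for 42 chow arrays, ordered by score on the horizontal axis, with colours for the low, middle and high sets. The score ran without a break from 7.816 in BXD48 to 8.437 in BXD80.

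The high set, from the highest score down, held BXD80, BXD49, BXD45, BXD73, BXD56, BXD97, BXD65, BXD98, BXD64, DBA/2J, BXD101, BXD51, BXD96 and C57BL/6J. Both parental strains were thus in the high set, DBA/2J at 8.246 and C57BL/6J at 8.164. The low set, from its highest score down, held BXD81, BXD70, BXD63, BXD44, BXD95, BXD75, BXD66, BXD55, BXD71, BXD92a, BXD100, BXD90, BXD84 and BXD48.

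Each score gene moved with the other 2 across the 42 chow arrays, which are described here without a test because all pairs share the same arrays. Pearson's r was 0.48 for Irf7 with Ifit1, 0.53 for Irf7 with Usp18 and 0.48 for Ifit1 with Usp18. Irf7 ran from 7.72 to 8.08 in the high set and from 7.49 to 7.82 in the low set. Ifit1 ran from 7.98 to 8.52 and from 7.51 to 8.13, and Usp18 from 8.46 to 8.94 and from 8.04 to 8.71. Every gene overlapped between the sets although the score did not. None of the 3 was bright, with chow means at the 48.6th, 53.1st and 63.8th percentile of all probesets for Irf7, Ifit1 and Usp18.

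The tissue markers fitted the label. The 8 muscle identity genes averaged 13.01 to 13.28 units in the high set and 13.06 to 13.22 in the low set. The arrays were run in batches named in the titles, with RNA extracted at different times. The high set held 7 arrays of batch 1 and 7 of batch 2, and the low set 5 and 9. Array medians were 7.829 to 7.888 units in the high set and 7.844 to 7.902 in the low set, so no set stood apart in its overall level.

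The BXD80 array, which had the highest score, stood apart from all other arrays in the GTPase genes. This array was singled out after its values were seen. It was the highest of 42 chow arrays for 11 of 15 interferon-inducible GTPases and 10 of 19 genes of MHC class I and antigen processing, where 1.79% of all named genes had their highest value on it. Iigp1, an immunity-related GTPase, was at 11.85 units in BXD80, while the highest of the other 41 strains reached 9.16. Irgm1, a regulator of the same family, was at 11.43 against a highest value of 9.20 elsewhere, and Irgm2 at 11.69 against 9.73. Gbp7, a guanylate-binding protein, was at 10.99 against 9.75. The largest gaps to the next array were at LOC100044195 (13.72 against 10.22) and Gm12185 (10.77 against 7.30), genes whose roles are not described here.

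The same strain stood apart on HFD, in other animals. Its HFD array was the highest of 37 for 7 of 15 GTPases and 4 of 19 genes of MHC class I and antigen processing, against 3.38% of all named genes. Iigp1 was at 10.86 units there against a highest value of 9.95 elsewhere, Irgm1 at 10.12 against 9.26 and Gm12185 at 10.46 against 8.15. Among the effectors BXD80 was the highest chow array for 9 of 57 (15.8%). Of the 5 genes closest to the score it ranked 1 of 42 for Ifih1 and Trim30a, 3 for Rtp4, 14 for Ifi44 and 18 for Oasl2. Over its macrophage genes the median was -0.17 units on chow and -0.34 on HFD relative to the median of the other strains, with Mpeg1 0.50, Tyrobp 0.06 and C1qa 0.05 above it on chow, and no macrophage gene was highest there on either diet. Of the T and NK cell genes 3 of 15 were highest there on chow, and the list ran both ways: Cd3e was at 8.45 units against a highest value of 8.40 elsewhere, while Cd3d ranked 41 of 42 at 5.99. The part of these cells in the difference was not tested.

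Across the 22332 other named genes, interferon-induced genes such as Ifi44, Iigp1, Ifit3 and Rsad2 were among those with the largest positive differences on chow, behind ND6. Of these genes, 72 were at least 0.3 units higher in the high set (0.322%) and 20 were at least 0.3 units lower (0.0896%). No gene had a high set that lay wholly above its low set (0%), and the reverse order was not counted over all genes. Of the 72, 25 were on an interferon list, 6 were slow fibre genes and 39 were on no list, and none of the 20 was on an interferon list. The middle set lay between the other 2 for 62 of the 72, and for 36.9% of the 9856 genes with any positive difference. These shares are not alike, because the 72 were chosen for a wide gap, within which a middle mean falls more readily. Since the groups were selected on values from the same arrays, the contrast of the sets carries no test. The limit of 0.3 units is descriptive, and the median difference over all other genes was -0.009 units. Without BXD80 the counts were 65 higher and 19 lower.

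The 57 interferon effectors, products that block viral RNA, translation or budding, were the widest group. Of them 49 had a positive difference, against 44.1% of other named genes, 13 were at least 0.3 units higher, and the median difference was 0.13 units with and without BXD80. The effector median was 0.07 units with batch 1 arrays alone, where 42 of 57 were positive, and 0.19 with batch 2 arrays alone, where 52 were. Ifi44, an antiproliferative interferon-induced protein, ran from 8.02 through 8.43 to 8.71 units in the high set and from 7.37 through 7.78 to 8.19 in the low set. Of the 14 high arrays 12 lay above the highest low array, the clearest separation among the named effectors. Ifit3, a partner of IFIT1 in binding RNA, ran from 8.31 through 8.62 to 9.75 and from 7.85 through 8.12 to 8.73, a difference of 0.51 units that was 0.43 without BXD80. Rsad2 (viperin), which makes a chain-terminating nucleotide, ran from 7.57 through 8.26 to 8.72 and from 7.19 through 7.64 to 8.06. Its difference was 0.50 units and 8 of the 14 high arrays exceeded every low array.

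Oasl2, an OAS-like protein, ran from 8.46 through 8.77 to 9.15 units in the high set and from 8.07 through 8.32 to 8.71 in the low set. Rtp4, an interferon-induced transporter protein, ran from 7.52 through 7.92 to 8.25 and from 7.14 through 7.39 to 7.84. The high arrays thus lay mostly above the low arrays, with 9 of 14 above the highest low array for each of these genes. The ISG15 ligase Herc6 was 0.33 units higher, Xaf1, an apoptosis factor, 0.33 higher, the nuclear body protein Sp100 0.35 higher and the RNase L activator Oas2 0.32 higher. Oas2 was at 0.09 units within batch 1 and 0.48 within batch 2, and Xaf1 at 0.21 and 0.43. Other classical effectors differed little. Mx1, the dynamin-like restriction factor, differed by 0.06 units, Zbp1, a sensor of Z-form nucleic acid, by 0.04, and Bst2 (tetherin) by -0.01. Isg15, whose conjugate Usp18 removes, differed by -0.05. Over the chow strains other than BXD80 the median was 5.78 units for Mx1 and 7.13 for Isg15, both dim, and 9.03 for Bst2.

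The genes outside the score with the highest correlation with it over the 42 chow arrays were Ifi44 (r = 0.79), Oasl2 (0.78), Rtp4 (0.78), Ifih1 (0.74) and Trim30a (0.73). These values are a description of arrays that also set the score. Trim30a, a TRIM family protein, was 0.36 units higher in the high set and its paralogue Trim30d 0.37 higher, with 0.14 in batch 1 and 0.52 in batch 2 for Trim30d. Members of the Trim30, Oas, Gbp, Tgtp and H2-Q families are similar in sequence, and their probes may share signal.

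The 15 interferon-inducible GTPases had a median difference of 0.34 units, with 14 positive and 8 at least 0.3 units higher. Without BXD80 the median was 0.23, below the 0.34 of the slow fibre list, and 4 were at least 0.3 units higher. Iigp1 ran from 7.70 through 8.27 to 11.85 units in the high set and from 7.66 through 7.88 to 8.49 in the low set. Its difference of 0.59 units was 0.33 without BXD80. Irgm1 differed by 0.40 units with BXD80 and 0.23 without, and Irgm2 by 0.36 and 0.12. Gbp2, a guanylate-binding protein, was less dependent on that strain, at 0.40 and 0.34 units, running from 8.21 through 8.63 to 9.38 against 7.92 through 8.20 to 8.81. Tgtp1, a T-cell-specific GTPase, differed by 0.47 units and by 0.33 without BXD80. Gbp9 was the GTPase with a negative difference, -0.04 units.

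Genes of antigen presentation were also mostly higher. Of the 19 genes of MHC class I and antigen processing 17 had a positive difference, with a median of 0.11 units, and 1 was at least 0.3 units higher, H2-Q6, a non-classical class I gene, at 0.37. The classical class I heavy chains H2-K1 and H2-D1 differed by 0.26 and 0.25 units, the peptide transporter Tap1 by 0.26 and the light chain B2m by 0.17. Tap1 was at 0.41 units in batch 1, which holds BXD80, and 0.13 in batch 2. Of the 7 MHC class II genes all were positive, with a median of 0.21 units (0.12 in batch 1 and 0.29 in batch 2) and with H2-Aa and Cd74 (the invariant chain) at 0.31 units each. Without BXD80 they were at 0.27 and 0.28, no class II gene was at least 0.3 units higher, and 6 of 7 were positive. H2-Ea-ps turned from 0.20 to -0.02 without BXD80, and it was at -0.04 within batch 1 and 0.22 within batch 2.

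Among the 20 receptors, kinases, STATs and IRFs the median difference was 0.04 units and 14 were positive. The transcription factor Irf9 differed by 0.21 units, the receptor chain Ifnar2 by 0.19 and Stat2 by 0.13. These differences were larger in batch 2, where Ifnar2 was at 0.36 units, Irf9 at 0.27 and Stat2 at 0.20, while in batch 1 they were at 0.01, 0.12 and 0.06. The list median was 0.01 units in batch 1 and 0.06 in batch 2. The kinases Jak1 and Jak2 differed by 0.04 and -0.06. The receptor subunits Ifnar1 and Ifngr1 differed by 0.04 and 0.05.

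Of the 21 nucleic acid sensors and adaptors 14 were positive, with a median of 0.04 units. Ifih1 (MDA5), a sensor of long double-stranded RNA, ran from 8.30 through 8.60 to 9.00 units and from 7.94 through 8.31 to 8.62, a difference of 0.31. Ifi203, a family member of the DNA sensors of the Ifi200 group, differed by 0.36, and Ddx58 (RIG-I) by 0.20. Ifi203 was at 0.11 units in batch 1 and 0.56 in batch 2, Ifih1 at 0.19 and 0.39 and Ddx58 at 0.13 and 0.26. The kinase Tbk1 and the sensor adaptor Traf6 differed by 0.00 and -0.01. The 11 negative regulators had a median of 0.00 units, with Socs1 at -0.09 and Socs3 at -0.07.

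The measured values of the interferon ligands were not higher. Of the 12 ligands, a list that also holds the cytokine Il15, 2 had a positive difference, none was at least 0.3 units higher, and the median was -0.04 units. Ifnb1 differed by 0.00, Ifng by -0.03 and Ifna4 by -0.09. Some ligands were dim: over the chow strains other than BXD80 the median was 5.96 units for Ifnb1 and 6.42 for Ifna4. Every array median was higher than that (7.783 to 7.922), and a rise in such dim genes could be missed. Other ligands were brighter, such as Ifna5 at 9.39. The chemokines had a median of 0.07 units, with Cxcl9 and Ccl5 at 0.19 each and Cxcl10 at 0.03. Without BXD80 Cxcl9 was at 0.12, Ccl5 at 0.13 and Cxcl10 at 0.01.

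Other cell types were read from marker lists, with values per array as the mean over the list. The macrophage list was 0.07 units higher in the median, 13 of 14 genes positive, and its list mean ran from 8.28 to 8.84 in the high set and from 8.15 to 8.83 in the low set. The batches differed here, with 2 of 14 macrophage genes positive and a median of -0.08 units in batch 1, and 13 of 14 positive and a median of 0.20 in batch 2. All 11 endothelial genes were positive with a median of 0.11 units, and the list mean ran from 9.51 to 10.20 and from 9.63 to 10.13. The endothelial median was 0.10 in batch 1 and 0.18 in batch 2. On the HFD arrays of the same strains 6 of 11 endothelial genes were positive, with a median of 0.01 units. Of the macrophage genes 9 of 14 were positive there, with a median of 0.02. T and NK cell genes had a median of -0.01 units, B cell genes -0.03 and plasmacytoid dendritic cell genes, which are known as makers of type I interferon, -0.02. Neutrophil genes had a median of 0.06 units and mast cell genes of -0.01. In whole muscle, fewer cells of a type and less RNA per cell cannot be told apart. The part of macrophage or endothelial RNA in the interferon result was not tested.

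Slow fibre genes were also higher in the high set on chow. All 11 were positive, with a median of 0.31 units, and 6 were at least 0.3 units higher. The list median was 0.10 units with batch 1 arrays alone and 0.43 with batch 2 arrays alone. Myl3, a slow myosin light chain, ran from 8.73 through 10.02 to 11.41 units and from 7.99 through 9.47 to 10.94, a wide overlap. Its difference of 0.51 units was 0.02 within batch 1 and 0.81 within batch 2. Myh7, the slow myosin heavy chain, differed by 0.31 units and the calcium pump Atp2a2 by 0.32 (0.08 in batch 1 and 0.52 in batch 2). The fast fibre genes had a median of -0.04.

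**Figure D2:**
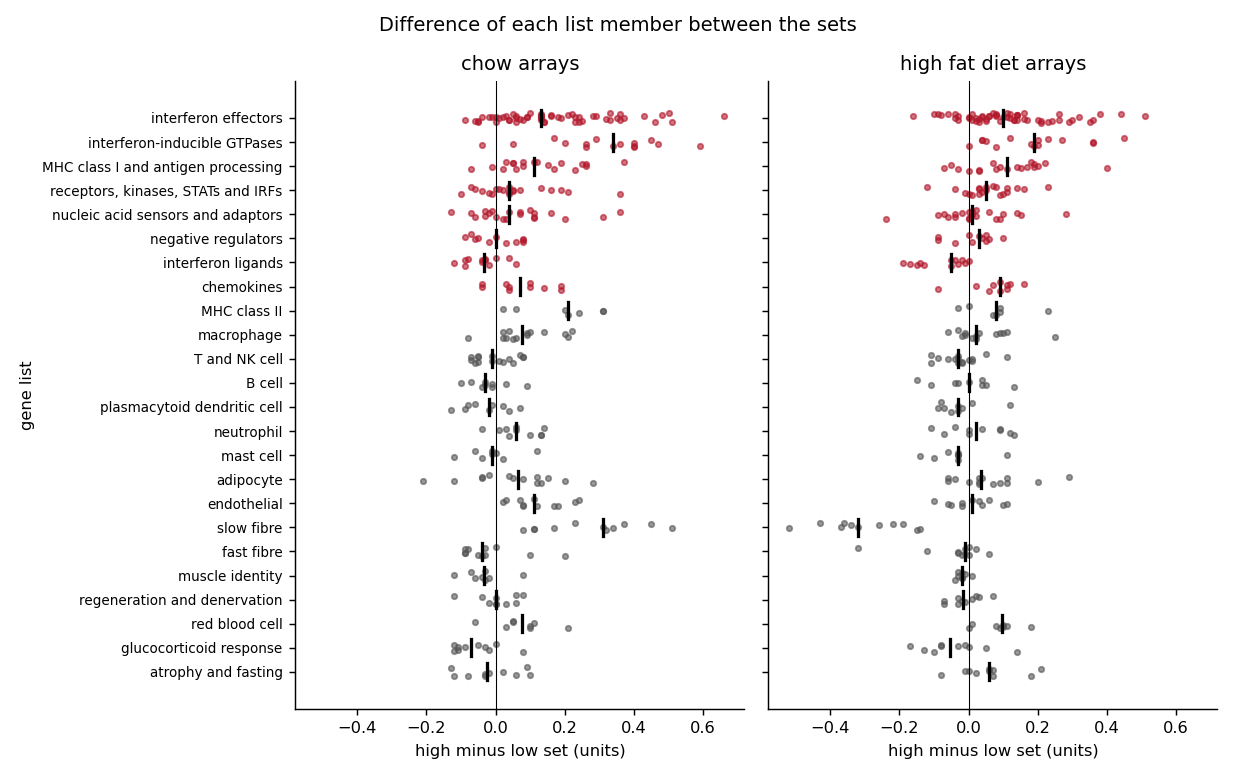
Each point is a gene of the list named on the vertical axis, plotted by its difference between the high and low sets in units, with a black bar at the list median, on chow (left) and on HFD (right). Interferon lists are red and other lists grey. The GTPase median is 0.34 on chow (0.23 without BXD80), and slow fibre genes have medians of 0.31 on chow and -0.32 on HFD.

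The genes with the largest differences outside the lists were mixed. The mitochondrially encoded ND6, a subunit of complex I, was 0.76 units higher, with 1.47 within batch 1 and 0.19 within batch 2, Gm10674 was 0.53 higher and Pcp4l1 0.51 higher. The small nucleolar RNA Snord115 differed by 0.48 units, with 0.89 in batch 1 and 0.12 in batch 2. The lower genes were led by Mcpt2, a mast cell protease, at -1.18 units. It ran from 5.54 through 7.30 to 9.38 in the high set and from 7.62 through 8.45 to 9.37 in the low set. Its values were split: 7 of the 14 high arrays (BXD101, BXD49, C57BL/6J, BXD56, BXD98, BXD51 and BXD45) lay between 5.54 and 6.63, and every other array of both sets lay at 7.62 or above. Of the middle set 4 arrays were also under 7 units. C57BL/6J was thus at 5.93 and DBA/2J at 7.96. Dkk3, a secreted protein of the Dickkopf family, differed by -0.70 units, with -0.20 in batch 1 and -1.09 in batch 2, Ear11, an eosinophil-associated RNase, by -0.67 (-0.15 and -1.12) and Tmem45b by -0.58 (-0.18 and -0.90). Fbxw11, Odf3l2, Gm10893, Pttg1, N6amt2 and 4832428D23Rik followed, between -0.48 and -0.38. The direction turned in a batch for Odf3l2, at 0.09 in batch 1 and -0.82 in batch 2, and for 4832428D23Rik, at -1.06 and 0.10.

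The effectors closest to the score and Rsad2 had a positive difference on chow within each batch. Ifi44 differed by 0.55 units in batch 1 and 0.77 in batch 2, Oasl2 by 0.32 and 0.59, Rtp4 by 0.45 and 0.53, and Rsad2 by 0.35 and 0.59. The difference was larger in batch 1, which holds the BXD80 array, for 13 of 15 GTPases, with Iigp1 at 1.06 and 0.20 and Gbp4 at 0.72 and 0.25, and not for Gvin1 (0.19 and 0.21) and Gbp1 (0.00 and 0.09).

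ISRE-type matches were counted in the promoter windows of the higher genes. Of the 25 interferon genes at least 0.3 units higher on chow, 19 had a promoter window and 12 of these (63.2%) held an ISRE-type match. Of the 47 other genes 25 had a window and 2 held one (8%). By list, 19 of 43 effectors (44.2%), 8 of 9 GTPases (88.9%), 5 of 16 class I genes (31.2%) and 0 of 10 slow fibre genes held an ISRE-type match. So did 4 of 11 ligands (36.4%) and 3 of 10 negative regulators (30%), lists without a higher median on chow. GAS-type matches were held by 4 of 9 GTPases (44.4%) and 9 of 43 effectors (20.9%). Among the genes at least 0.3 units higher on chow the GAS-type share was alike on and off the interferon lists, at 4 of 19 (21.1%) and 5 of 25 (20%). These shares are descriptive and stand beside the 3.99% and 9.55% of all genes given above.

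Whether the chow ranking carried over to other animals of the same strains was asked of the HFD arrays, which the choice did not use. The score on HFD ran from 8.04 through 8.32 to 8.59 units in the 13 strains of the high set and from 7.95 through 8.09 to 8.36 in the 12 of the low set. The groups overlapped but the difference of means was 0.218 units (8.31 ± 0.15 SD against 8.10 ± 0.12 SD, permutation test with 100000 draws, two-sided p = 0.00061). Without BXD80 it was 0.219 units (permutation p = 0.00096). Within batch 2 it was 0.236 units (exact permutation p = 0.0035, 6 against 7 arrays) and within batch 1 0.213 units (exact permutation p = 0.0606, 7 against 5). The middle set averaged 8.29 ± 0.18 (SD, n = 12), near the high set, and its difference from either set was not tested.

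Taken alone, Usp18 differed by 0.240 units on HFD (permutation p = 0.0005), Ifit1 by 0.302 (permutation p = 0.0035) and Irf7 by 0.112 (permutation p = 0.0682). Irf7 did not pass 0.05 although its direction was that of the other score genes.

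Over the 37 strains with an array on each diet, the chow score correlated with the HFD score (Pearson's r = 0.52, permutation p = 0.00116, adjusted p = 0.00232; Spearman's rho = 0.55, permutation p = 0.00045, adjusted p = 0.0018, over 4 relations). Without the 2 strains farthest from the chow median r was 0.51 (permutation p = 0.00166). The relation differed in size by batch: r was 0.09 over the 12 strains with both arrays in batch 1 (permutation p = 0.787), 0.81 over the 17 with both in batch 2 (permutation p = 0.00018) and 0.61 over the 8 with 1 array in each. It therefore did not hold within batch 1, and the difference between batches was not tested. For single genes r was 0.53 for Usp18 (rho 0.49, permutation p = 0.00087 and 0.00243, adjusted p = 0.00232 and 0.00486), 0.37 for Ifit1 (rho 0.42, permutation p = 0.0247 and 0.0105, adjusted p = 0.0329 and 0.0139) and 0.24 for Irf7 (rho 0.24, permutation p = 0.148 and 0.143, adjusted p = 0.148 and 0.143).

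Individual strains show how loosely the diets were tied. BXD45 was high on both, at 8.429 on chow and 8.590 on HFD, and BXD48 was low on both, at 7.816 and 7.994. BXD65 was in the high set on chow at 8.333 but reached 8.035 on HFD, within the range of the low set. BXD43 was at 8.025 on chow, near the lower limit, and at 8.536 on HFD. BXD70, in the low set at 8.012, reached 8.357 on HFD, the highest of its set.

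**Figure D3:**
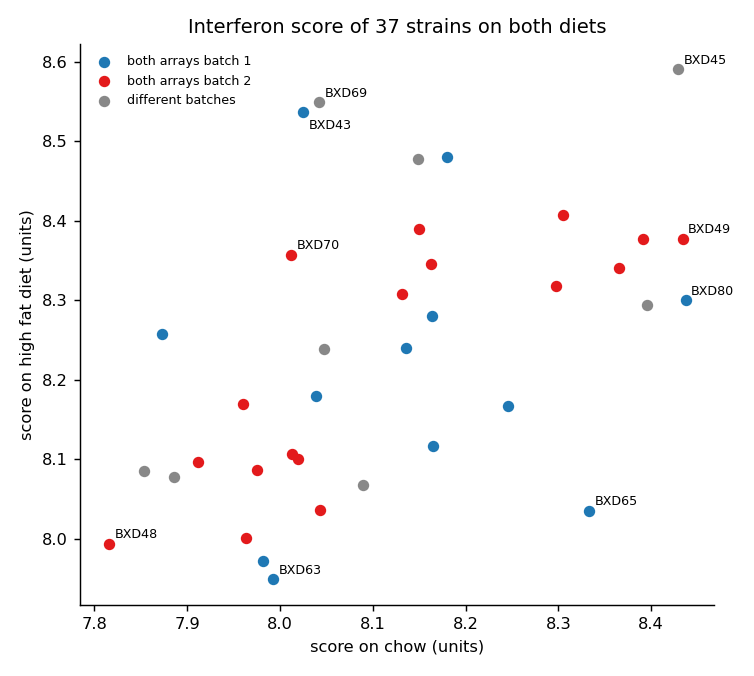
The score on chow (horizontal axis) is plotted against the score on HFD (vertical axis) in units for 37 strains, coloured by whether both arrays were in batch 1, in batch 2 or in different batches. The batch 2 strains rise together (r = 0.81), whereas the batch 1 strains do not (r = 0.09).

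In the fit across all 35556 probesets on HFD, no probeset was called (0% higher, 0% lower) by limma at an adjusted p under 0.05, with array batch as a term. The smallest adjusted p was 0.703, and 2361 probesets had an unadjusted p under 0.05. The methods' t-test also called 0, with 2459 at an unadjusted p under 0.05. Among named genes, 2.07% were higher and 4.29% lower at an unadjusted p under 0.05, and 43.2% had a positive difference. Every single gene below is therefore a value that did not pass the adjusted test.

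Of the 72 genes at least 0.3 units higher on chow, 58 had a positive difference on HFD and 20 an unadjusted p under 0.05 in that direction. Of the 20 lower on chow, 18 had a negative difference and 2 an unadjusted p under 0.05. Of 57 effectors 47 were positive on HFD with a median of 0.10 units, 19 at an unadjusted p under 0.05 higher and 1 lower. All 15 GTPases were positive, by 0.00 to 0.45 units, with a median of 0.19. Without BXD80 13 were positive, the range was -0.05 (Gbp8) to 0.30 (Gbp4) and the median was 0.11. With all strains 2 had an unadjusted p under 0.05. All 15 were positive in batch 1 alone and 10 in batch 2 alone. Of the 19 class I genes 15 were positive with a median of 0.11, and 5 had an unadjusted p under 0.05. Of the 7 class II genes 5 were positive, with a median of 0.08.

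Rsad2 ran from 7.53 through 8.46 to 8.84 units on HFD in the high strains and from 7.49 through 8.02 to 8.58 in the low strains. The limma difference was 0.44 units (SE 0.130, unadjusted p = 0.00216, adjusted p = 0.713). Rtp4 ran from 7.72 through 7.85 to 8.36 and from 7.36 through 7.61 to 8.06, so that all 13 high arrays lay above the low median. Its difference was 0.26 units (SE 0.078, limma adjusted p = 0.728). Ifih1 behaved alike, with 13 of 13 above the low median and a limma estimate of 0.28 units (SE 0.081, adjusted p = 0.717). Ifi44 differed by 0.32 units (SE 0.137, limma adjusted p = 0.744), Ifit3 by 0.35 (SE 0.143, limma adjusted p = 0.744) and Ifgga2, a GTPase inducible by interferon gamma and listed with the effectors, by 0.51 (SE 0.152, limma adjusted p = 0.742). Oasl2, which tracked the score closely on chow, differed by 0.17 units on HFD (SE 0.100, limma adjusted p = 0.758).

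**Figure D4:**
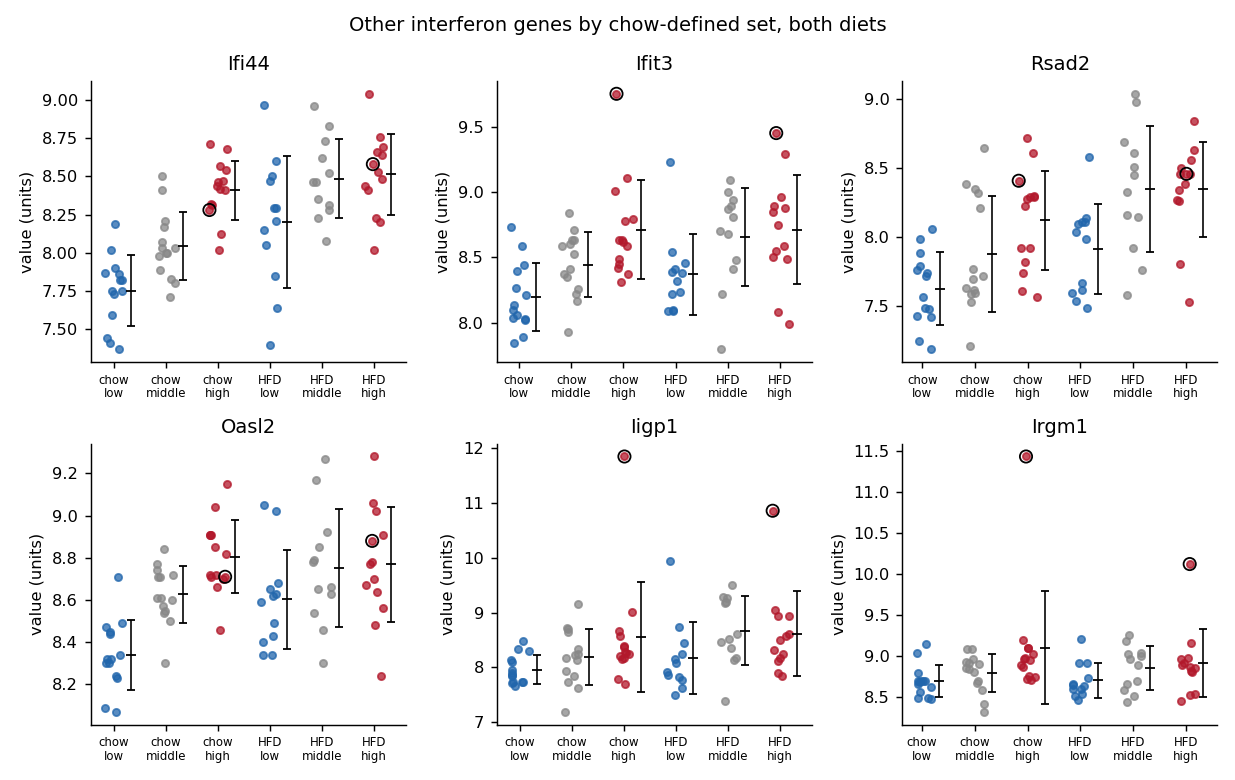
Each point is an array, grouped on the horizontal axis by the set its strain fell into on chow and by diet, with values in units on the vertical axis. Black marks give the mean ± SD and open circles mark BXD80. Ifi44 separates 12 of 14 high chow arrays from the low set, and BXD80 lies far above the rest for Iigp1 and Irgm1 on both diets.

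The ligand values were again not higher, with the same limit for the dim members. None of the 12 had a positive difference on HFD (6 with batch 1 arrays alone and 0 with batch 2 arrays alone), the median was -0.05 units, and 3 were lower at an unadjusted p under 0.05, among them Ifng at -0.17 units (SE 0.054, limma adjusted p = 0.744). Of the receptors and transcription factors 17 of 20 were positive, with a median of 0.05 units. Isg15 differed by -0.04 and Mx1 by 0.06.

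Slow fibre genes lay the other way on HFD than on chow. None of the 11 was positive, the median was -0.32 units, and 2 were lower at an unadjusted p under 0.05, Tnni1 at -0.52 (SE 0.247, limma adjusted p = 0.748) and Tnnt1 at -0.34 (SE 0.156, limma adjusted p = 0.744). Myl3 differed by 0.51 units on chow and -0.36 on HFD. The difference between the diets was not tested. The list means overlapped on both diets, from 9.34 to 11.37 units in the high set and 9.32 to 11.35 in the low set on chow, and from 9.00 to 10.82 and 9.70 to 11.31 on HFD. Mcpt2 kept its direction, at -1.29 units on HFD (SE 0.391, limma adjusted p = 0.744), with -1.38 in batch 1 and -1.20 in batch 2. Its high strains ran from 6.08 through 8.27 to 9.10 there, and its low strains from 8.18 through 8.75 to 9.64. The 6 high strains with low Mcpt2 on chow that had an HFD array were again the lowest of the high and low strains, at 6.08 to 6.40 units, while no low strain was under 7. Of the middle strains 4 were also under 7 on HFD. The limit of 7 units was set after the values were seen, so this split is a description. The mast cell list, which does not hold Mcpt2, had a median of -0.01 units on chow and -0.03 on HFD.

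**Figure D5:**
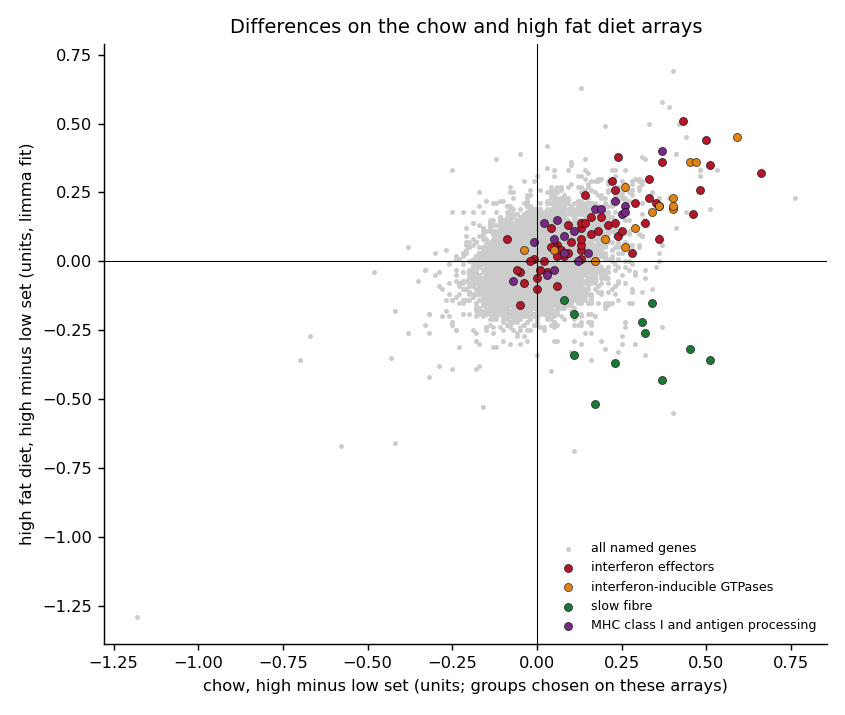
The difference between the high and low sets on chow (horizontal axis, arrays that set the groups) is plotted against that on HFD (vertical axis, limma fit) in units, with all named genes in grey and 4 lists in colour. Interferon effectors and GTPases lie mostly in the upper right, slow fibre genes in the lower right, and Mcpt2 alone at the far lower left (-1.18 and -1.29).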

How the data were processed

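Quadriceps RNA of 79 strain and diet pools was measured on Affymetrix Mouse Gene 1.0 ST arrays. Per the labels, RNA was extracted as 2 sets at different times, and the submitters' processing notes name Affymetrix Expression Console. The deposited table holds a normalized score per probeset, which the authors had scaled to a mean of 8.0 and an SD of 2.0 on every array. The background correction and log base are not given in the sources used here. Depth does not apply to arrays, so their number limits the precision. Of 35556 probesets, 26221 carried a gene symbol for 22335 symbols, and the probeset with the highest mean over the chow arrays stood for its gene. Members and gene lists were chosen with earlier results of these data known.

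The chow contrast was described by means, SDs and differences with no test, since its groups came from the same arrays. The HFD arrays were tested with limma 3.58.1 in R 4.3.3 (lmFit and eBayes, with set and array batch as terms, and Benjamini-Hochberg adjustment over all probesets), checked on simulated data. The score was tested by permutation (100000 draws, or exact below 10 arrays in a set) with Python 3.11.15 and numpy 2.4.6. Each array is a pool of 1 strain, and p-values measure the spread between strains. Genes named were the score genes, members of the interferon lists, the 10 genes with the largest chow differences in each direction among the others, the highest listed or largest members of other lists, and the 5 genes closest to the score. BXD80 and its leading genes were picked from their values. Promoter sequences are from RefSeq (GRCm38.p6), matched by symbol or synonym. Set size, score weighting, batch handling, normalization, a filter on dim probesets, parental strains, BXD63, BXD80 and the probeset rule were varied as alternatives. The result for 1 gene is not reported here.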

Additional observations from a re-analysis of the deposited data

How the results depend on the processing

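The counts of genes at least 0.3 units apart on chow depended on how the sets were formed. They were 147 higher and 45 lower with 10 against 10 arrays, 173 and 86 with batch 1 arrays alone and 177 and 66 with batch 2 arrays alone. With 21 against 21 arrays 7 genes were lower. A limit of 0.2 units gave 243 higher and 86 lower, and 0.5 units gave 7 and 4, by the construction of the limit. Of the 72 higher genes, 45 were also higher in batch 1 alone and 48 in batch 2 alone. The effector median on chow was 0.20 units with 10 against 10 arrays, against 0.13 as reported. The HFD score difference missed 0.05 with batch 1 arrays alone (0.213 units) and with Irf7 alone (0.112 units). The cause was not tested. The score correlation between the diets also did not hold within batch 1. The medians of 4 interferon and slow fibre lists, the score results and the single HFD genes recomputed here did not otherwise change side of the threshold or direction, whereas genes such as H2-Ea-ps and Odf3l2 turned direction on chow and Gbp8 on HFD, as given beside their values. The HFD fit called 0 probesets in every alternative. Leaving out BXD80 or BXD63 changed no call in the HFD fit. On chow 58 of the 72 higher genes stayed past the limit without BXD80 and 67 without BXD63. No paired analysis was possible because the high and low sets hold different strains and the replicate numbers only name samples.

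Each strain has 1 array per diet, so the spread between animals of a strain is not in these values.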

Other observations

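Red blood cell genes had a positive difference in 7 of 8 genes on chow (median 0.08 units) and 8 of 8 on HFD (0.09 units). Glucocorticoid response genes had medians of -0.07 units on chow, with 1 of 10 positive, and -0.06 on HFD, with 2 of 10 positive. The direction turned between batches for some of them, such as Fkbp5 on chow (0.05 in batch 1 and -0.23 in batch 2). Mt1 turned on HFD, at -0.26 and 0.17, while Per1 on chow was at -0.14 in each batch. Genes of atrophy and fasting had medians of -0.02 and 0.06 units, and those of regeneration and denervation 0.00 and -0.02. The adipocyte list mean ran from 9.16 to 10.79 units in the high set and from 9.27 to 10.09 in the low set on chow. None of these lists held a gene at least 0.3 units higher or lower on chow.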
